A study of Mus musculus with 6 samples.

Results

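The genes described here are 10 genes of the circadian clock and its direct outputs: Arntl, Nr1d1, Nr1d2, Per2, Per3, Cry1, Dbp, Tef, Nfil3 and Usp2. They were taken as every probe set of the array that the platform annotation ties to exactly 1 of these symbols, which gave 23 of the 45037 probe sets tested and 10 of the 18193 genes measured. The genes were selected on their values in this same comparison of diets, so their levels and differences are described below and carry no test. Livers came from male BALB/cCrSlc mice, an inbred albino strain, at 17 weeks of age. The control group, 10C, had eaten an AIN-93M-based low-protein diet with 10% casein, and the other group, 6C+4CP, the same base with 6% casein and 4% collagen peptide from fish. Both diets were low in protein and lasted 10 weeks, and less casein came together with the peptide, so their parts cannot be told apart. From 12 mice per diet, 3 of medium food efficiency were measured, with 1 array per mouse and 1 piece of liver lobe per array. Tissue was taken in the morning after 3 h without food, and the hour at which each mouse was sampled is not given in the labels.

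The circadian clock is a loop of transcription factors that runs with a period of about a day in most cells, the hepatocyte among them. ARNTL (also called BMAL1) pairs with CLOCK and switches on genes with E-box elements, among them the Per and Cry genes, whose proteins return to repress ARNTL and CLOCK. A second loop runs through the receptors NR1D1 and NR1D2 (REV-ERB alpha and beta), which repress Arntl through elements that bind ROR receptors. Outputs are carried by DBP and TEF, which activate genes with D-box elements, and by NFIL3, which represses the same elements. In mouse liver Arntl, Nfil3 and Cry1 transcripts are known to peak late in the night or around dawn, and those of Nr1d1, Nr1d2, Dbp, Tef, Usp2 and the Per genes during the day or around dusk. These are called the night group and the day group below.

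Promoter sequences of the members are shown because the clock loops act through short elements in them. RefSeq's table for GRCm38.p6 held 11 promoters for 9 of the 10 members. In each, the 250 bases before the gene's start were searched on both strands for the E-box CACGTG, its variant CACGTT, the D-box TTATGNAA and the ROR element written as TAGGTCA or TGGGTCA. The stretches run 5′ to 3′ on the gene's strand, and capitals mark the matched letters. Per3 had 2 D-box matches (chr4:151044796-151044890, minus strand), Cry1 an E-box and an E-box variant (chr10:85185089-85185153, minus strand), Nfil3 a ROR element read on the other strand (chr13:52981040-52981071, minus strand), and Tef an E-box before each of its 2 starts, of which the first is shown (chr15:81802526-81802571, plus strand).
Per3: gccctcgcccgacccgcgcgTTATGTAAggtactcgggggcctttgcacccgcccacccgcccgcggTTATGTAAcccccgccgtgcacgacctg
Cry1: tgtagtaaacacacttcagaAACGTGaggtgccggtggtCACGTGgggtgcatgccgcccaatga
Nfil3: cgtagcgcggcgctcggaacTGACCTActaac
Tef: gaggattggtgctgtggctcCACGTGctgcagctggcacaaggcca
Nr1d1 had 1 match to the E-box variant. Over all 32851 promoters of the table, 6.02% held the E-box, 3.85% its variant, 3.07% the D-box and 5.38% the ROR element in the same 250 bases. A match is a string of letters and not a measured binding site, and a window without one says only that the letters are not in that window.

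The values are the deposited log2-like values, 1 per probe set and array. In 17.3% of the probe sets (7791 of 45037) they ranged over more than 0.01 across the 6 arrays. The others hold nearly 1 value for all mice, which does not show whether the level differed. Of the 23 clock probe sets 13 ranged over more than 0.01, and they cover 9 of the 10 genes. The narrowest range above this limit was 0.27, for a Per3 probe set, and the widest below it was 2.8e-08, also for Per3, so no member lay near the limit. Nr1d1, the REV-ERB alpha gene, had a single probe set with the value 6.48 on every array and gives no information on the mice. The other 9 probe sets without variation belong to Arntl (1), Nr1d2 (1), Per2 (2), Per3 (4) and Tef (1), each a gene with at least 1 other probe set that varied.

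Usp2 was the member that separated the diets most clearly, and Dbp, Arntl, Nfil3 and Cry1 ranged more widely among the mice of each diet than their diet means differed. The mouse labelled 10C replicate 3 and the mouse labelled 6C+4CP replicate 2 had the highest value of their diet for each of the 3 night genes and the lowest for Dbp and Nr1d2. Of the 13 varying probe sets 8 had the higher mean in 6C+4CP and 5 the lower, against 47.9% higher among all varying probe sets. The diets did not overlap in 3 of the 13, all higher in 6C+4CP (both probe sets of Usp2 and 1 of Tef). That is a share of 23.1%, near the 19.9% of all 7791 varying probe sets, and so is no result about the clock genes as a set. The median difference over the 13 was 0.12 and over all varying probe sets -0.0040. In a piece of whole liver, fewer cells of a type and less RNA per cell cannot be told apart.

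**Figure D1:**
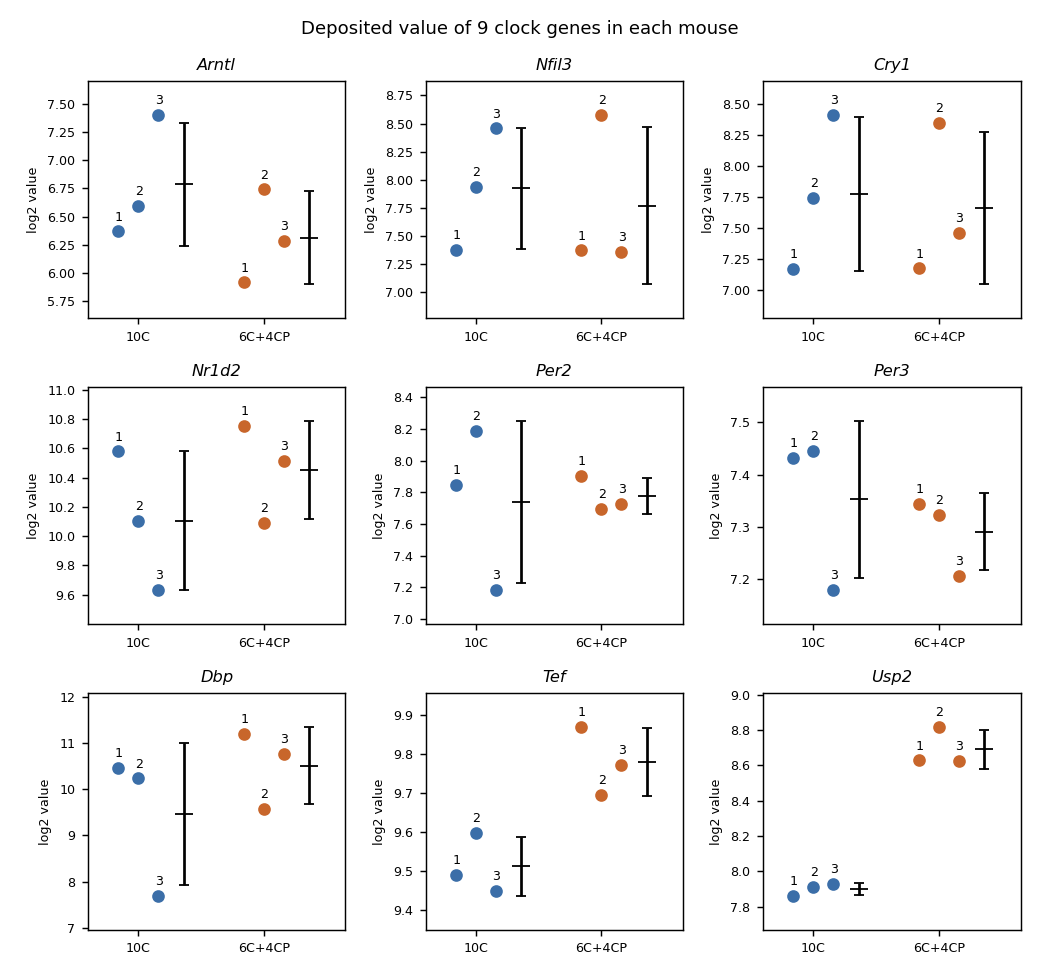
Deposited log2 value (vertical axis, a separate scale per gene) of the 9 clock genes with varying values, at the probe set of highest mean. Each point is a mouse, numbered by replicate within its diet, and the black mark is the mean of 3 mice with its SD. Usp2 lies at 7.86 to 7.93 under 10C and at 8.63 to 8.82 under 6C+4CP, whereas Dbp spans 7.69 to 10.46 within 10C alone.

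Arntl encodes BMAL1, the activator at the head of the loop. Its varying probe set (1425099_a_at) read 6.37, 6.59 and 7.40 in 10C replicates 1, 2 and 3, and 5.92, 6.74 and 6.29 in the same order in 6C+4CP. The highest values were those of 10C replicate 3 and 6C+4CP replicate 2, and the diets overlapped. The log2 difference (6C+4CP minus 10C) was -0.47 (SE 0.39), from means of 6.79 ± 0.54 under 10C and 6.31 ± 0.41 under 6C+4CP (SD, n = 3). Without 1 mouse at a time the difference ran from -0.69 to -0.17, and the largest move came without 10C replicate 3 (-0.17).

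Nfil3, the repressor of D-box genes, read 7.38, 7.94 and 8.46 under 10C and 7.37, 8.58 and 7.36 under 6C+4CP (1418932_at). In 6C+4CP a single mouse, replicate 2, stood above the other two by 1.21, or 2.31-fold. The means of 7.92 ± 0.54 and 7.77 ± 0.70 differed by -0.15 (SE 0.51), less than the spread among mice. Leaving out 1 mouse moved this between -0.56 (without 6C+4CP replicate 2) and 0.11 (without 10C replicate 3), so its sign rests on which mice are counted.

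Cry1, which with the PER proteins represses ARNTL and CLOCK, followed nearly the same pattern as Nfil3. It read 7.17, 7.74 and 8.41 in 10C and 7.17, 8.35 and 7.46 in 6C+4CP (1433733_a_at). The mice of the 2 diets covered almost the same span, from 7.17 to 8.41 and from 7.17 to 8.35. The means were 7.78 ± 0.62 and 7.66 ± 0.61 (SD, n = 3), with a difference of -0.11 (SE 0.50) that ran from -0.46 without 6C+4CP replicate 2 to 0.20 without 10C replicate 3.

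Nr1d2 encodes REV-ERB beta, the repressor of Arntl. Its varying probe set (1416958_at) read 10.58, 10.11 and 9.63 under 10C and 10.75, 10.09 and 10.52 under 6C+4CP. The order of the mice within each diet was the reverse of that of Arntl: the mouse with the lowest Arntl value had the highest Nr1d2 value and the reverse, in both diets. The means of 10.11 ± 0.47 and 10.45 ± 0.33 differed by 0.35 (SE 0.33), with overlap, and by 0.11 without 10C replicate 3.

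Per2, a repressor of the core loop, read 7.85, 8.19 and 7.18 in 10C and 7.90, 7.70 and 7.73 in 6C+4CP (1417602_at). The 6C+4CP mice lay close together, inside the wider range of the 10C mice. The difference was 0.035 (SE 0.30), and it was -0.24 without 10C replicate 3 and 0.26 without 10C replicate 2. Per3, a related gene, read 7.43, 7.45 and 7.18 in 10C and 7.34, 7.32 and 7.21 under 6C+4CP at the probe set of highest mean (1421087_at), a difference of -0.062 (SE 0.097). At its other varying probe set (1458176_at) it read 6.80, 6.63 and 6.32 against 6.62, 6.50 and 6.46, a difference of -0.058 (SE 0.15). Both Per genes were lowest in 10C replicate 3, and neither separated the diets.

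Dbp, the D-box activator and the member with the widest range over the mice, was covered by 2 probe sets that both varied. The brighter (1438211_s_at) read 10.46, 10.23 and 7.69 under 10C and 11.20, 9.57 and 10.76 under 6C+4CP. The other (1418174_at) read 8.99, 8.47 and 6.53 against 9.67, 8.11 and 8.62, with the same order of mice within each diet. In 10C replicate 3 the brighter probe set was 6.31-fold below the mean of the other two 10C mice (log2 difference -2.66), and in 6C+4CP replicate 2 it was 2.65-fold below the other mice of its diet (-1.40).

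Between diets the Dbp mean was 9.46 ± 1.54 under 10C and 10.51 ± 0.84 under 6C+4CP (SD, n = 3), a difference of 1.05 (SE 1.01) or 2.07-fold, no larger than the spread among the mice. Leaving out 10C replicate 3 gave 0.17, and leaving out 6C+4CP replicate 2 gave 1.55. The second probe set gave 0.81 (SE 0.88), and 0.074 without 10C replicate 3.

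Tef, the close relative of Dbp, had a much narrower range. Its brightest probe set (1424175_at) read 9.49, 9.60 and 9.45 in 10C and 9.87, 9.69 and 9.77 in 6C+4CP. All 3 mice of 6C+4CP lay above the 3 of 10C, and the difference of 0.27 (SE 0.067) stayed between 0.22 and 0.31 without any 1 mouse. The other varying probe set of Tef (1438033_at) read 6.90, 6.89 and 6.67 against 7.23, 6.69 and 6.88, overlapped, and gave 0.12 (SE 0.17). The probe sets of Tef therefore disagree on whether the diets lie apart.

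Usp2 encodes a ubiquitin-specific protease whose transcript cycles in many tissues. It read 7.86, 7.91 and 7.93 under 10C and 8.63, 8.82 and 8.63 under 6C+4CP at 1417169_at. At its second probe set (1417168_a_at) it read 7.70, 8.01 and 7.87 against 8.65, 8.93 and 8.51. The diets lay apart at both, and 10C replicate 3 and 6C+4CP replicate 2 did not take the low place that they had for Dbp. The means at the first were 7.90 ± 0.035 and 8.69 ± 0.11 (SD, n = 3), a difference of 0.79 (SE 0.067) or 1.73-fold. The second gave 0.84 (SE 0.15), and without any 1 mouse the 2 probe sets ran from 0.73 to 0.82 and from 0.72 to 0.94.

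**Figure D2:**
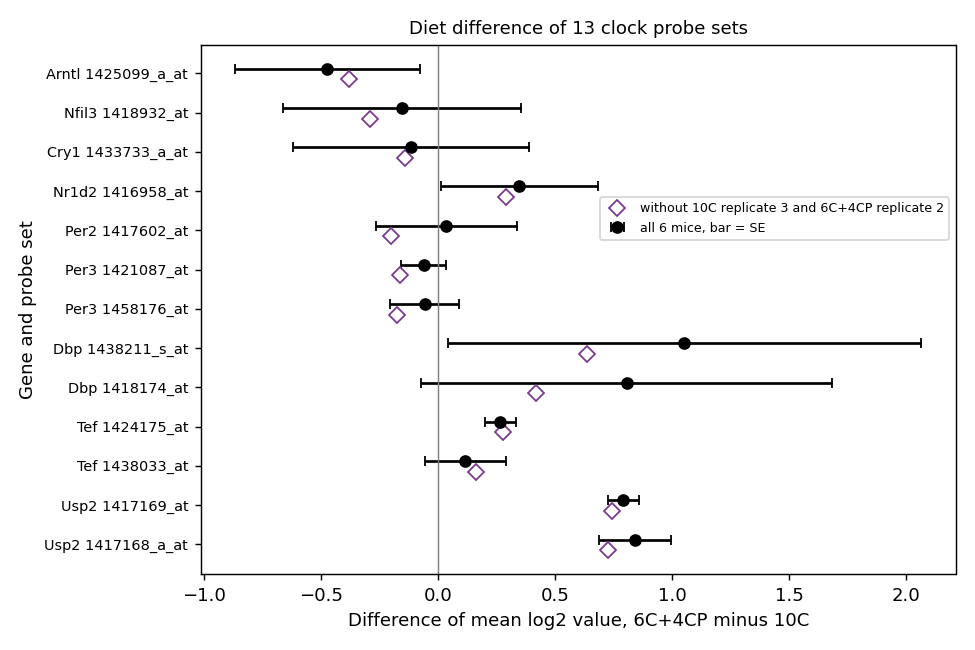
Difference of mean log2 value, 6C+4CP minus 10C (horizontal axis), for the 13 varying clock probe sets (vertical axis). Filled points use all 6 mice with the SE as bar, and open diamonds leave out 10C replicate 3 and 6C+4CP replicate 2. The bars of both Usp2 probe sets and of the brighter Tef probe set stay clear of 0 by the widest margins, and those of Dbp are the longest.

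The pattern among the mice of a diet is a further description, of genes and phase groups chosen with earlier results of these data known. Of the 13 varying probe sets, 10C replicate 3 and 6C+4CP replicate 2 were both the highest of their diet in 4 (Arntl, Nfil3, Cry1 and probe set 1417169_at of Usp2) and both the lowest in 6 (both of Dbp, both of Tef, Nr1d2 and Per2). That is 10 of 13, against 37.4% of all varying probe sets (15.3% both highest and 22.1% both lowest). These mice were singled out after their values were seen, and probe sets of 1 gene are not independent, so no test is attached. Over the 7791 varying probe sets the deviations of these 2 mice from the mean of their own diet correlated with r = 0.401 (computed across probe sets, whose values are not independent), and those of the 2 mice numbered 1 with r = 0.477.

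A mean over the 3 night genes minus a mean over the 6 day genes puts the mice in 1 order. Only differences between mice are read from this score, since levels of different probe sets cannot be compared. Values were not scaled, so Dbp, with a range of 3.51 over the 6 arrays, weighs most in the day mean. The score was -1.97, -1.49 and -0.085 in 10C replicates 1, 2 and 3, and -2.46, -0.98 and -2.06 in 6C+4CP replicates 1, 2 and 3. The highest value was that of 10C replicate 3 and the next that of 6C+4CP replicate 2, so the 2 mice lay at the night end from different diets. The diet means of -1.18 ± 0.98 and -1.83 ± 0.77 (SD, n = 3) differed by -0.65, less than either SD, and by -0.10 when 10C replicate 3 was left out. Leaving out 10C replicate 1 gave -1.05, 6C+4CP replicate 1 -0.34 and 6C+4CP replicate 2 -1.08.

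**Figure D3:**
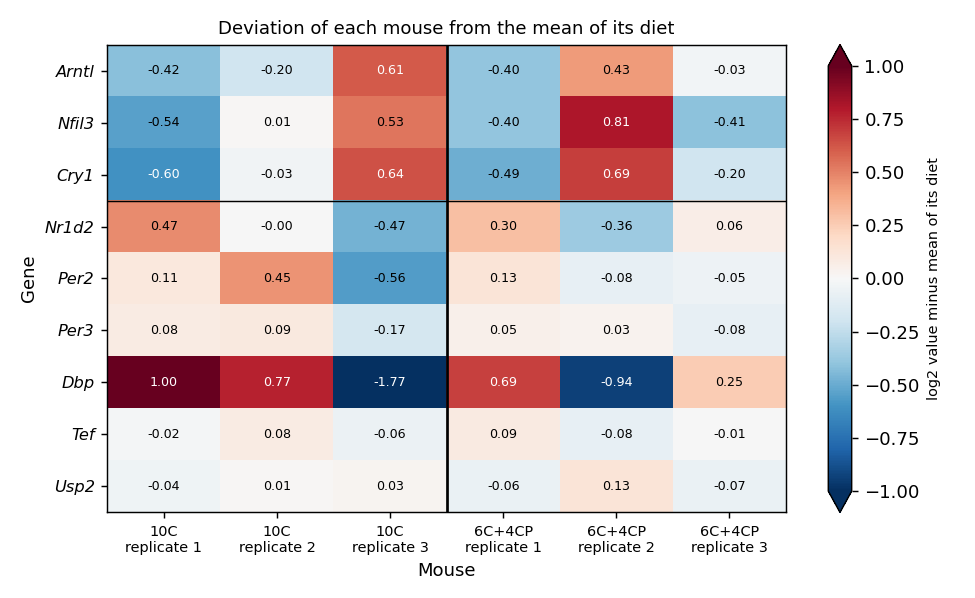
Deviation of each mouse (columns) from the mean of its own diet in log2 value for 9 clock genes (rows), red above and blue below, with colours saturated beyond 1 and the value printed in each cell. The night genes Arntl, Nfil3 and Cry1 are red and Dbp and Nr1d2 blue in 10C replicate 3 and 6C+4CP replicate 2, with Dbp at -1.77 and -0.94.

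With both of these mice left out, an alternative chosen after the values were seen, 2 mice remained per diet. The brighter Dbp probe set then differed by 0.63, Arntl by -0.38, Nfil3 by -0.29, Cry1 by -0.14, Nr1d2 by 0.29, Per2 by -0.20, Per3 by -0.16, Tef by 0.28 and Usp2 by 0.74. Of these 9 genes, Per2 alone changed sign against the values with all mice. The diets were apart in 5 of the 13 probe sets without 10C replicate 3, against 37.7% of all varying probe sets, and in 6 without 6C+4CP replicate 2, against 32.9%. Without both they were apart in 8 of the 13, where 51.4% of all varying probe sets were.

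Genes of the clock outside these 10 were taken from a list of 26, of which 23 were measured with 69 probe sets. The list was drawn up with earlier results of these data known. Between the diets 0 of the 69 passed limma (Benjamini-Hochberg adjusted p under 0.05 over all 45037 probe sets), where 0.242% of all probe sets passed, and 6 of those 109 ranged over more than 0.01. At an unadjusted limma p under 0.05 there were 4 higher and 1 lower, where 6.42% of all probe sets passed in either direction. Among the 17 that varied there were 3, against 13.1% of all varying probe sets. Of the 23 genes 12 varied, and 11 held a shared value, among them Per1, Npas2, Bhlhe41 and Rorb.

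Of the varying ones, Rora, a ROR receptor that activates Arntl through the elements NR1D1 and NR1D2 occupy, was higher by mean at all 4 varying probe sets, by 0.073 (SE 0.065) to 0.40 (SE 0.15), with the diets apart at 3 of them. Its smallest adjusted p was 0.70 (limma), so no difference passed. At 1455165_at it read 8.13, 8.28 and 8.54 in 10C and 8.59, 8.68 and 8.87 in 6C+4CP. Sirt1, a deacetylase that acts on clock proteins, read 7.25, 7.42 and 7.0004 against 7.82, 7.72 and 7.61, a difference of 0.49 (SE 0.14, limma adjusted p = 0.62). Csnk2a1, a kinase subunit, differed by -0.34 (SE 0.094, limma adjusted p = 0.62), also without overlap. In a limma fit to the varying probe sets alone, adjusted p was 0.27 for Rora (1455165_at), 0.19 for Sirt1 and 0.20 for Csnk2a1. That fit called 0 probe sets of this list at an adjusted p under 0.05.

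Clock, the partner of ARNTL, had differences of 0.076 (SE 0.057) and -0.10 (SE 0.18) at its 2 varying probe sets. Bhlhe40, an E-box repressor, read 9.29, 9.40 and 8.37 in 10C and 9.0005, 8.74 and 8.94 in 6C+4CP, with 10C replicate 3 lowest of all as for Dbp and Per2. Ciart, an inhibitor of the core loop, differed by 0.056 (SE 0.025), Cry2 by 0.044 (SE 0.071) and Hlf, the third D-box activator, by -0.0036 (SE 0.036). Differences were 0.24 (SE 0.14) for Prkaa1 and -0.075 for Prkaa2, catalytic subunits of the energy sensor AMPK, -0.068 and -0.038 for the kinase Csnk1d, and -0.042 for Fbxw11. Of the 17 varying probe sets 4 were highest and 3 lowest in both 10C replicate 3 and 6C+4CP replicate 2. Over all varying probe sets 15.3% were both highest and 22.1% both lowest in these mice.

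Outputs of the liver clock were read from a list of 37 genes, of which 33 were measured (66 probe sets, 51 of them varying). Limma called 0 of the 66 at an adjusted p under 0.05. At an unadjusted p under 0.05 there were 11 higher and 7 lower, where 6.42% of all probe sets passed in either direction. Some of these held nearly 1 value on all arrays. Of the 51 that varied 12 had an unadjusted p under 0.05, against the 13.1% of all varying probe sets. The diets lay apart in 13 of the 51 (25.5%, against 19.9% of all varying probe sets), and the median difference was 0.15. Among these 51 the genes of smallest p were Gys2, Nampt, Cyp7a1 and Pnpla2. A Cyp2b10 probe set with a smaller p than Pnpla2 held nearly 1 value on all arrays and is passed over. Gys2, the liver glycogen synthase, read 10.25, 10.36 and 10.40 in 10C and 10.86, 10.92 and 10.75 under 6C+4CP, a difference of 0.51 (SE 0.067, limma adjusted p = 0.30). Nampt, the rate-limiting enzyme of NAD salvage and a target of CLOCK and ARNTL, differed by 0.60 (SE 0.095, limma adjusted p = 0.38) and by 0.62 at its second probe set. The diets lay apart for both genes, as they did for Pnpla2, a triglyceride lipase (0.37, SE 0.081, limma adjusted p = 0.56). In a limma fit to the varying probe sets alone, adjusted p was 0.10 for Gys2, 0.10 for Nampt (1417190_at) and 0.14 for Pnpla2. That fit called 0 probe sets of the output list at an adjusted p under 0.05.

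Cyp7a1, which catalyses the first step from cholesterol to bile acids and is an output of DBP and NR1D1, read 8.66, 9.18 and 9.34 in 10C and 6.38, 7.82 and 6.04 in 6C+4CP at its brighter probe set. The diets lay apart at both probe sets, with differences of -2.31 (SE 0.58, limma adjusted p = 0.58) and -1.90 (SE 0.33, limma adjusted p = 0.46). In the limma fit to the varying probe sets alone, the adjusted p was 0.16 and 0.10, in the same order. In 6C+4CP the highest of the 3 was replicate 2, the mouse with low Dbp.

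In other outputs, chosen here after their values were seen, the mice of a diet lay far apart and the diets overlapped. Elovl3, a fatty acid elongase that cycles in mouse liver under NR1D1, read 8.26, 9.49 and 12.47 in 10C and 8.18, 10.98 and 9.46 in 6C+4CP, so that its highest values were again those of 10C replicate 3 and 6C+4CP replicate 2. Its difference between diets was -0.53 (SE 1.49), and 0.67 without 10C replicate 3. Insig2, a regulator of sterol synthesis and a target of NR1D1, read 10.46, 10.75 and 11.70 against 10.30, 11.08 and 11.001. Rgs16, an inhibitor of G protein signalling that cycles with feeding, read 11.76, 11.83 and 9.37 against 9.97, 9.87 and 8.02, and 6C+4CP replicate 2 was not low in it. Its difference between diets was -1.70 (SE 1.03, limma adjusted p = 0.81), and -2.50 when 10C replicate 3 was left out, with -1.64 and -2.13 at its other 2 probe sets. Over the 51 varying probe sets of the output list, both mice were highest in 21 and lowest in 8. The shares over all varying probe sets were 15.3% and 22.1%.

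**Figure D4:**
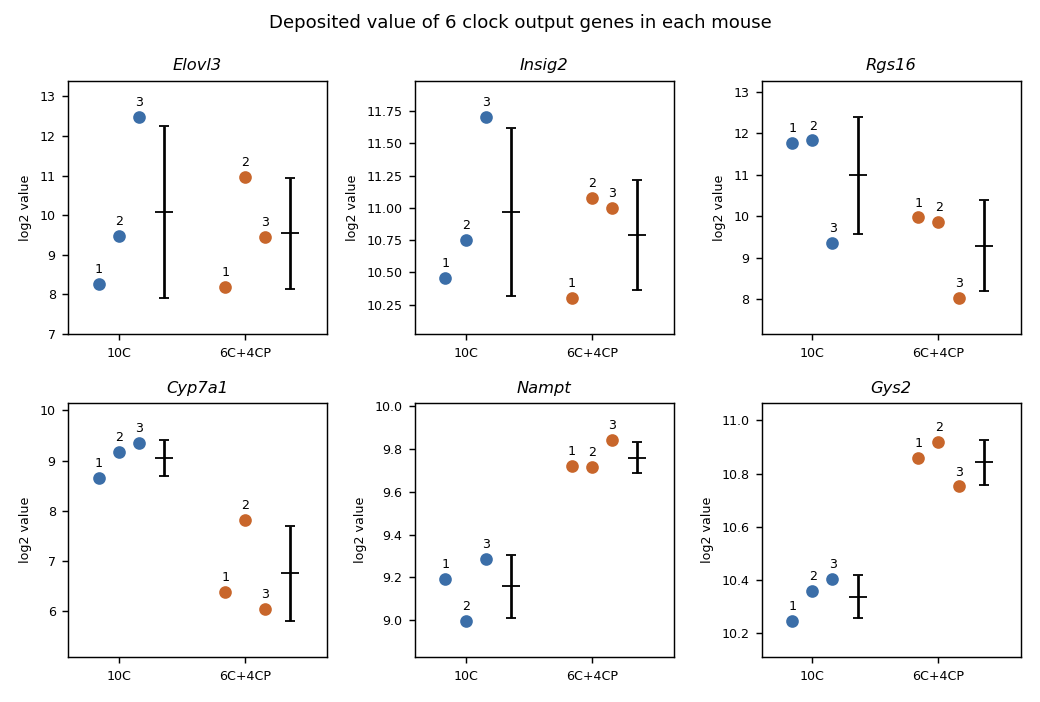
Deposited log2 value (vertical axis, a separate scale per gene) of 6 clock output genes at the probe set of highest mean. Points are mice numbered by replicate within their diet and the black mark is the mean of 3 mice with its SD. Elovl3 reaches 12.47 in 10C replicate 3 and 10.98 in 6C+4CP replicate 2, while Nampt, Gys2 and Cyp7a1 lie apart by diet.

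Genes whose values over the 6 arrays were most like those of Arntl and of Dbp were sought among 1398 other genes that ranged over more than 0.5, each at its probe set of highest mean. For Arntl they were Serping1, a complement inhibitor (r = 0.9955), the immediate early factor Egr1 (0.9883), Fpgs, of folate retention (0.9773), and Prodh, of proline breakdown (0.9756). For Dbp they were Flcn (0.9912), the hepatocyte transcription factor Cebpa (0.9908), Prxl2a (0.9841) and Tusc3 (0.9747). These Pearson coefficients rest on 6 mice and are the best of many, and are given as a description of likeness. Cebpa, for instance, read 9.48, 9.31 and 8.67 in 10C and 9.73, 9.22 and 9.51 in 6C+4CP, with the same 2 mice lowest in their diets.

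Marker genes of hepatocytes had a mean value of 12.58 to 12.65 under 10C and 12.53 to 12.54 under 6C+4CP. These were the 7 of 10 that were measured, 5 of them varying. The 10 Kupffer cell and macrophage markers had means of 7.92, 7.83 and 8.17 in 10C and 7.84, 7.68 and 8.07 in 6C+4CP. Thus 10C replicate 3 was highest and 6C+4CP replicate 2 lowest in its diet. Of these markers 8 varied, 7 of them at the probe set that was averaged. None of the measured markers of cholangiocytes, adipocytes or skeletal muscle varied, and their means were 6.08, 6.32 and 6.18 on every array, with 6.28 for T or NK cells. The mean over 5 B cell markers, 2 of them varying, was 6.76 to 6.89 under 10C and 6.69 to 6.72 under 6C+4CP. This mean lay apart between the diets as for hepatocytes, and so did 1 of the 2 varying markers. Of the 5 varying hepatocyte markers 3 lay apart, against 19.9% of all varying probe sets. For sinusoidal endothelium (7.80 to 7.86 under 10C, 7.83 in every 6C+4CP mouse), stellate cells (8.16 to 8.21 and 8.19 to 8.21), neutrophils (6.24 to 6.42 and 6.21 to 6.32), erythroid cells (7.36 to 7.40 and 7.40 to 7.45) and pancreatic acinar cells (7.07 to 7.18 and 7.02 to 7.15) the diets overlapped. Few of these markers varied: 2 of 8 measured for endothelium, 4 of 8 for stellate cells and 1 of 6 for neutrophils. For erythroid cells 1 of 3 varied, and for pancreatic acinar cells 1 of 5. The part of cell composition in the clock values was not tested.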

How the data were processed

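Total RNA of 6 livers was labelled with biotin from 100 ng and hybridised to 1 Affymetrix array each, per the labels' protocols. The authors' deposited values are on a log2-like scale and were used as given. They run from 4.757 to 14.48, with array medians of 6.306 to 6.308. R 2.7.2 was used per the submitters' processing notes, while no label or header used here states how background was corrected, how probes were summarised or which log base applies, so folds rest on reading the values as log2. Control probe sets (64 of 45101) were left out. Of the rest, 34945 had 1 gene symbol in GEO's platform annotation, 932 had several and 9160 none, and those with several or none named no gene.

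Samples were grouped by title. Mean log2 values were subtracted as 6C+4CP minus 10C, with the SE from both SDs. Tests of genes outside the 10 used limma 3.58.1 under R 4.3.3 (lmFit, then eBayes, 6 arrays, no covariates), with Benjamini-Hochberg adjustment over all 45037 probe sets. The fit was run on simulated data whose planted changes were larger than any difference between diets given here. That run does not show whether differences of the size described here would be called. Precision is limited by the number of arrays. The members, the lists, the phase groups and the motifs were chosen with earlier results of these data known. The text names every member, every varying gene of the clock list, the 4 genes of smallest p in the output and systemic cue lists (among varying probe sets, a limit set after the values were seen), and the 4 genes most like Arntl and Dbp, passing over predicted genes; others were named after their values were seen. Alternatives were quantile normalization, median centring, varying or brighter probe sets, trend with robust estimation, a replicate block, an adjusted p under 0.1, a range over 0.1, the mean of a gene's varying probe sets, leaving out each array, and leaving out 2 arrays together (added after seeing the data). Marker lists for hepatocytes and 11 other cell types were averaged per array at each gene's probe set of highest mean.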

Additional observations from a re-analysis of the deposited data

How the results depend on the processing

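The number of clock probe sets higher in 6C+4CP (8 of 13) stayed between 7 and 9 under quantile normalization, median centring, without each array in turn and without 2 arrays together. The mean differences of the 9 genes moved by less than the larger SD of a diet under the same alternatives and with a gene's varying probe sets averaged. Leaving out 1 of 3 mice cannot move a diet mean by as much as its SD, so for those alternatives this bound shows nothing. Without 10C replicate 3 the Dbp difference fell from 1.05 to 0.17. The signs of Cry1 (-0.11 to 0.20), Nfil3 (-0.15 to 0.11) and Per2 (0.035 to -0.24) changed. Probe sets apart between the diets numbered 3 to 6 without 1 array (5 without 10C replicate 3, 6 without 6C+4CP replicate 2, where 37.7% and 32.9% of all varying probe sets were apart) and 8 without both. The count of probe sets called by limma over the whole table was unstable: 109 as reported, 1 with quantile normalization, 0 with median centring (1202 at an unadjusted p under 0.05), 0 among varying probe sets (1140), 0 in the brighter part (1842), 0 with trend and robust estimation (2685), 285 to 398 without 1 array, 966 without 10C replicate 3 and 6C+4CP replicate 2 together, and then 0 among varying probe sets (1468). Of the 188 probe sets of the clock, output and systemic cue lists outside the members, 0 were called as reported (28 at an unadjusted p under 0.05), 0 to 1 without 1 array (Dnaja1 lower without 10C replicate 3; a Rora probe set whose difference was under 0.01 in size when 6C+4CP replicate 3 was left out) and 2 without both mice (Ppara, higher, and a Junb probe set whose difference was also under 0.01).

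The diets share replicate numbers, but deviations of same-numbered mice correlated with r = 0.477, -0.0893 and 0.0847 across varying probe sets, and 10C replicate 2 correlated best with 6C+4CP replicate 1, so the numbers were not taken as pairs. With the replicate block limma called 3 probe sets of the whole table and 0 of the 188 (37 at an unadjusted p under 0.05). With 3 mice per diet and no background signal deposited, a difference smaller than the spread among mice could not be resolved for Arntl, Nfil3, Cry1, Nr1d2, Per2, Per3 or Dbp.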

Other observations

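Genes that respond to feeding, hormones, heat or handling were read from a list of 28, of which 26 were measured with 53 probe sets. Limma called 0 of them at an adjusted p under 0.05, with 2 higher and 3 lower at an unadjusted p under 0.05, where 6.42% of all probe sets passed. Of the 41 that varied 4 had such a p, against 13.1% of all varying probe sets, and the diets lay apart in 6 (14.6%, against 19.9%). Among the 41 the genes of smallest p were Hsp90aa1, a cytosolic chaperone, with a difference of -0.98 (SE 0.22), Sgk1, a kinase induced by glucocorticoids, with 0.28 (SE 0.074), Angptl4, an inhibitor of lipoprotein lipase, with 0.23 (SE 0.069), and Fgf21, a fasting hormone of liver, with 0.84 (SE 0.33). In this order their limma adjusted p was 0.57, 0.61, 0.65 and 0.70. The unadjusted limma p of Fgf21 was 0.059, above the limit of 0.05. These probe sets are 4 of the 6 in which the diets lay apart. The Angptl4 probe set among them read 5.77 to 6.14, below the array medians, and at a brighter one (1417130_s_at) the diets overlapped (0.26, SE 0.23). Hsp90aa1 was also apart at 1437497_a_at (-0.89, SE 0.31). At its brightest probe set (1438902_a_at) the diets overlapped (-0.47, SE 0.21). The last of the 6 was Tsc22d3 at 1420772_a_at, lower in 6C+4CP (-0.37, SE 0.15). At 1425281_a_at Tsc22d3 was also lower by mean, with overlap (-0.67, SE 0.31). An Fkbp5 probe set with a smaller p than Sgk1 ranged over less than 0.01 and is passed over.

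In other genes of that list, picked after their values were seen, the mice of a diet lay far apart and the diets overlapped. Igfbp1, a binding protein of insulin-like growth factors that insulin represses, read 9.01, 10.24 and 11.92 in 10C and 8.53, 11.71 and 9.004 in 6C+4CP, highest in 10C replicate 3 and 6C+4CP replicate 2. Hspa1b, an inducible heat shock protein, read 11.05, 9.19 and 7.99 against 11.58, 9.55 and 11.76, and within each diet was lowest in the same 2 mice. Pdk4, a kinase that restrains glucose oxidation, read 5.51, 5.35 and 8.83 against 5.87, 9.67 and 9.47, high in 10C replicate 3 and in 2 of the 6C+4CP mice. Lpin1, a phosphatidate phosphatase, read 9.63, 9.99 and 7.69 against 9.08, 10.51 and 8.42, low in 10C replicate 3 and high in 6C+4CP replicate 2, so the 2 mice did not resemble each other in every gene of the list. Of its 41 varying probe sets both mice were highest in 12 and lowest in 8, against 15.3% and 22.1% of all varying probe sets.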
